A study of Mus musculus with 9 samples.

Results

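T cell receptor (TCR) locus transcripts are the RNAs of the constant and joining segments from which T cells assemble their antigen receptors. Reads of 9 such genes, Trgj1, Tcrg-C1, Tcrg-C2, Tcrg-C3, Tcrg-C4, Trbc1, Trbc2, Trdc and Trac, and of Cd3g, a chain of the CD3 complex, were followed in group 2 innate lymphoid cells (ILC2s) of the mouse pancreas. These 10 genes, out of 20732 in the count table, were picked by name with their values in this comparison already known, so their levels are given as a description and without p-values. The cells came from C57BL6/J mice given PBS or 200 ng of IL-33 on days 0 and 1, with harvest of the pancreas on day 5. The sources used here give neither age nor sex. The sort kept live KLRG1+ CD45+ cells that lacked CD3, B220 and lineage markers. The sample labels give 4 PBS libraries, titled naive, and 5 IL-33 libraries, whereas the series' design text gives 5 and 4 mice, and the labels were followed. Nothing in the labels ties a library to 1 mouse, so errors and p-values measure the spread between libraries.

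A TCR pairs an alpha with a beta chain or a gamma with a delta chain, and either pair needs the CD3 chains to reach the cell surface. In developing T cells the RAG recombinase joins V, D and J segments ahead of a constant gene, and constant genes can also be transcribed before any joining, from promoters near the D and J segments, as germline transcripts. The mouse gamma locus holds 4 constant genes, each with its own J segment, and the beta locus holds 2 clusters, each a D segment with a row of J segments ahead of Trbc1 or Trbc2. ILC2s lack a surface TCR, and they share precursors and many transcription factors with T cells.

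The sequences below, from the GENCODE M21 transcripts on GRCm38 and written 5′ to 3′ along the RNA, show which of these genes a read can tell apart. The first set holds the gamma J segments, with capitals where a base differs from Trgj1. Trgj4 differs in length and was not compared base by base.
Trgj1 (chr13:19210343-19210402, plus strand): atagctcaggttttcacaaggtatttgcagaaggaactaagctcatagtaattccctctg
Trgj3 (chr13:19257117-19257176, plus strand): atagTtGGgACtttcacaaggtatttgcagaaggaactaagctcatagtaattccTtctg
Trgj2 (chr13:19311245-19311304, minus strand): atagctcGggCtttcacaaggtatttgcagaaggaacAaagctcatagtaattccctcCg
Trgj4 (chr13:19342152-19342212, plus strand): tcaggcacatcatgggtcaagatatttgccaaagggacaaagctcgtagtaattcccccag
The second set holds the first 90 bases of the first constant exon in 1 transcript of each gamma gene, with capitals where a base differs from Tcrg-C1. The Tcrg-C3 transcript used starts 1 base inside the start of the gene.
Tcrg-C1 (chr13:19214103-19214192, plus strand): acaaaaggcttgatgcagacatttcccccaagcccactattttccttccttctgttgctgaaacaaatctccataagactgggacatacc
Tcrg-C3 (chr13:19260885-19260974, plus strand): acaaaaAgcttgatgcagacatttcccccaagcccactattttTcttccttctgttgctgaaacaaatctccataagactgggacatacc
Tcrg-C2 (chr13:19307462-19307551, minus strand): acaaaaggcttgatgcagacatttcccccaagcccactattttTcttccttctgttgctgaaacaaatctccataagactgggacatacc
Tcrg-C4 (chr13:19344558-19344647, plus strand): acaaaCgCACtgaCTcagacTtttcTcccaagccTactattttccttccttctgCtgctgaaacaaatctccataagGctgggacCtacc
Over the 330 bases of that exon, Tcrg-C1 differed from Tcrg-C2 at 9 bases (97.3% identity), from Tcrg-C3 at 13 (96.1%) and from Tcrg-C4 at 59 (82.1%). Of the 31-base words in the Tcrg-C1 transcript, 35.8% also occurred in Tcrg-C2, 29.5% in Tcrg-C3 and 0.0% in Tcrg-C4. Reads could therefore be shared among Tcrg-C1, Tcrg-C2 and Tcrg-C3 by the authors' counting, and their split is uncertain, while Tcrg-C4 has no such word in common with them.
The third set shows the 60 bases around the only difference between Trbc1 and Trbc2 in their first exon, in capitals in Trbc2.
Trbc1 (chr6:41538447-41538506, plus strand): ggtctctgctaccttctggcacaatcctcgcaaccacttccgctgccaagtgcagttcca
Trbc2 (chr6:41546959-41547018, plus strand): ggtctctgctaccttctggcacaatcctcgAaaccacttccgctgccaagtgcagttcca
Of the words of Trbc1, 45.4% occurred in Trbc2, so the split between these genes is uncertain as well.

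Libraries held between 14216976 and 21020023 counts. Levels are CPM, counts scaled to the library size with edgeR's TMM factors. PBS replicate 4 carried 42.0% of its counts in markers of acinar cells, which secrete digestive enzymes, against 0.132% to 12.2% over the lowest and highest shares of the other libraries, and its TMM factor was 0.532 against 0.990 to 1.17. Erythroid markers, globins among them, summed to 1293 to 3568 CPM in IL-33 replicates 1, 2 and 3 and to 168 to 540 CPM in the other libraries. In the fit of all genes, 3633 of 14405 genes tested (25.2%) passed an edgeR adjusted p of 0.05, with 1967 rises and 1666 falls, so that 54.1% of calls were higher. Scaled by library size alone, 1332 genes rose and 644 fell, so that 67.4% of calls were higher, and the median log2 change over all genes was larger by 0.13. The label ILC2 was checked on Gata3, the lineage factor, at 4518 ± 579 CPM with PBS (SD, n = 4) and 4030 ± 1586 CPM with IL-33 (SD, n = 5), on Il1rl1, the IL-33 receptor, at 1181 ± 199 and 865 ± 157 CPM, and on Klrg1, used in the sort, at 709 ± 81.9 and 1429 ± 200.0 CPM. All 10 ILC2 markers were tested and none was at 0 in a group.

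The gamma locus differed most between the groups. Trgj1, Tcrg-C1, Tcrg-C3 and Tcrg-C2 were abundant or moderate in every PBS library and near the detection limit or low in every IL-33 library, while Tcrg-C4 stayed abundant in both. Trgj1, the 60-base J segment ahead of Tcrg-C1 (chromosome 13, 19210343 to 19210402), had 643, 452, 554 and 199 counts in PBS replicates 1 to 4 and 8, 6, 5, 8 and 6 counts in IL-33 replicates 1 to 5. Its level was 26.7 ± 5.69 CPM with PBS (SD, n = 4) and 0.336 ± 0.0855 CPM with IL-33 (SD, n = 5). The groups were far apart, with a log2 change, IL-33 over PBS, of -6.30 ± 0.31 (SE), or 78.7-fold lower.

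Tcrg-C1, a gamma constant gene of 3 exons (chromosome 13, 19214103 to 19217024), was at 610, 490.0, 486 and 351 CPM in the PBS libraries and at 15.7, 9.26, 8.28, 19.0 and 14.8 CPM in the IL-33 libraries. The lowest PBS library, replicate 4, lay far above the highest IL-33 library, and the log2 change was -5.17 ± 0.29 (SE), 36.1-fold lower. In PBS libraries Tcrg-C1 was the 278th most abundant gene of the table by mean CPM, and with IL-33 it was the 7431st.

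Tcrg-C3 (chromosome 13, 19260884 to 19263528) was at 93.0, 73.0, 72.1 and 53.0 CPM with PBS and at 2.49, 1.84, 1.67, 3.19 and 1.64 CPM with IL-33. Tcrg-C2, which lies on the opposite strand (chromosome 13, 19304649 to 19307551), was at 57.0, 41.5, 40.3 and 33.9 CPM with PBS and at 2.82, 1.48, 3.39, 3.38 and 1.91 CPM with IL-33. Neither gene's groups overlapped, and the log2 changes were -5.07 ± 0.28 (SE) and -4.05 ± 0.30 (SE). For every 100 counts of Tcrg-C1 there were 15.0 ± 0.193 of Tcrg-C3 with PBS (SD, n = 4) and 16.8 ± 3.69 with IL-33 (SD, n = 5), and 8.94 ± 0.665 and 21.1 ± 11.3 of Tcrg-C2. The ratio of Tcrg-C3 to Tcrg-C1 was thus nearly fixed over the PBS libraries, and how far it reflects shared reads was not tested.

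Tcrg-C4, the gamma constant gene whose sequence stands apart (chromosome 13, 19344558 to 19352756), was at 473, 386, 426 and 312 CPM with PBS and at 238, 209, 275, 231 and 199.8 CPM with IL-33. Its groups were apart by a small gap, and the log2 change was -0.79 ± 0.14 (SE), or 1.73-fold lower. The gap rests on the TMM factor of 0.532 of PBS replicate 4. Before that scaling, this library held 3265 counts of Tcrg-C4 in a total of 19725838, against 3519 in 15485122 for IL-33 replicate 2. Tcrg-C1 gave 121 ± 8.51 counts for every 100 of Tcrg-C4 with PBS and 5.93 ± 2.16 with IL-33, a ratio within each library that no scaling between libraries can move. Trgj4, the J segment ahead of Tcrg-C4, was at 17.5 ± 2.72 CPM with PBS (SD, n = 4) and 9.89 ± 2.08 CPM with IL-33 (SD, n = 5), a fall with a log2 change of -0.83 (edgeR adjusted p = 0.026). That call was lost when any of PBS replicates 1, 2 or 3 or IL-33 replicates 2 or 5 was left out (edgeR adjusted p 0.053 to 0.070) and with library size alone (0.18). It was also lost without the 3 IL-33 libraries high in globin reads (0.11), where the log2 change was -0.98. That setting keeps only IL-33 replicates 4 and 5. It called 732 genes higher and 664 lower of 15411 tested, against 1967 and 1666 of 14405 with all libraries. A call lost there cannot be told apart from the effect of fewer libraries. Trgj4 followed Tcrg-C4 closely, with 4.4 ± 0.0956 counts per 100 of Tcrg-C4 with PBS and 4.26 ± 0.477 with IL-33, whereas Trgj1 gave 5.53 ± 0.187 and 2.65 ± 0.809 counts per 100 of Tcrg-C1.

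Summed over the 4 gamma constant genes, the level was 1232, 989.9, 1024 and 749 CPM in PBS replicates 1 to 4 and 259, 222, 289, 257 and 218 CPM in IL-33 replicates 1 to 5. Every PBS library lay above every IL-33 library, and the group means of 999 ± 198 CPM (SD, n = 4) and 249 ± 29.3 CPM (SD, n = 5) gave a log2 change of -2.01, 4.01-fold lower. The make-up of the sum also differed. With PBS, Tcrg-C1 gave 48.3% ± 1.37, Tcrg-C4 40.1% ± 1.7, Tcrg-C3 7.26% ± 0.246 and Tcrg-C2 4.32% ± 0.316 (SD, n = 4). With IL-33, Tcrg-C4 gave 92.6% ± 2.17 and Tcrg-C1 5.46% ± 1.89, with 0.873% ± 0.249 for Tcrg-C3 and 1.03% ± 0.256 for Tcrg-C2 (SD, n = 5). Without Tcrg-C4 the sum of the other three went from 600.1 ± 132 to 18.2 ± 5.42 CPM, 33.0-fold lower.

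**Figure D1:**
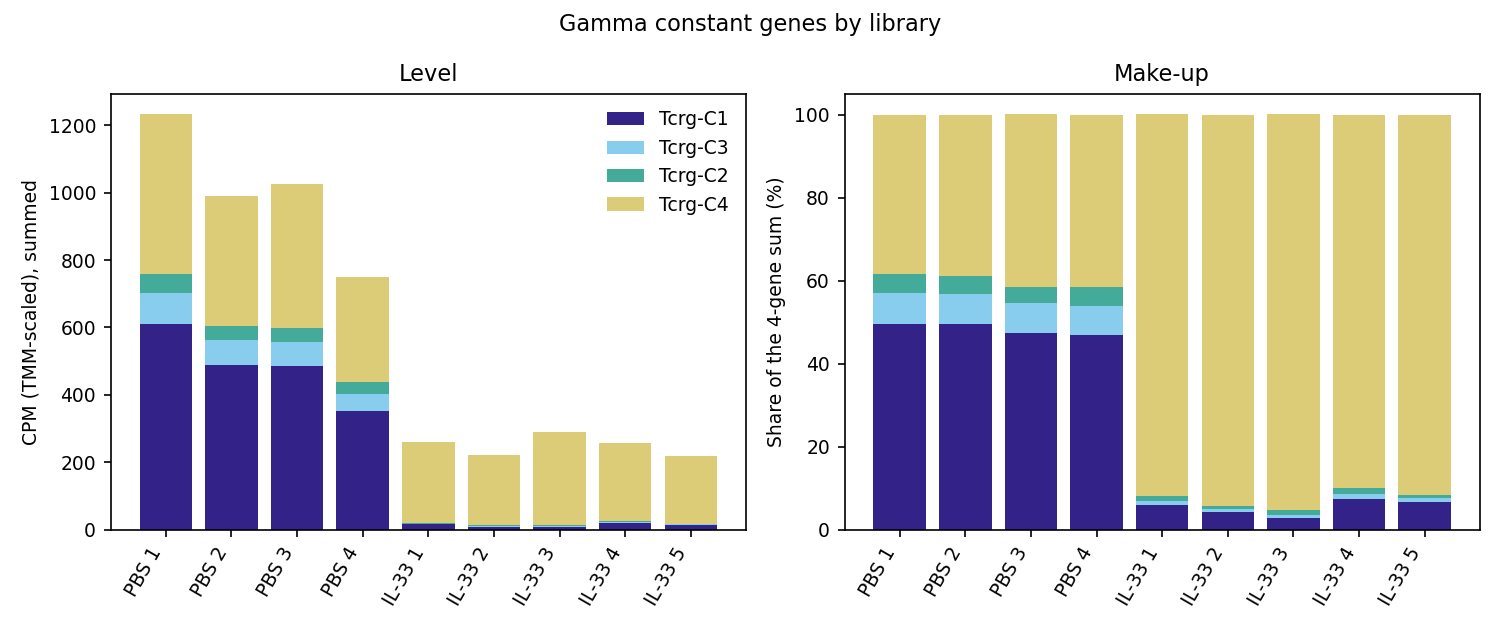
Gamma constant genes in each of the 9 libraries: on the left the stacked TMM-scaled CPM of Tcrg-C1, Tcrg-C3, Tcrg-C2 and Tcrg-C4, on the right the same values as a share (%) of their sum. The PBS stacks reach 749 to 1232 CPM and the IL-33 stacks 218 to 289 CPM, and Tcrg-C4 fills 38.3% to 41.6% of the PBS stacks and 92.6% of the IL-33 stacks on average.

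The V segments of the gamma locus, which encode the antigen-binding part of a rearranged chain, had few reads beside the constant genes. All 7 analysed gamma V segments together held 650 counts over the PBS libraries, against 68753 counts of the gamma constant genes, and 431 against 24935 with IL-33. This was 0.948 ± 0.147 V counts per 100 constant counts with PBS (SD, n = 4) and 1.7 ± 0.552 with IL-33 (SD, n = 5), over exons of 2777 and 3473 bases in all. The most abundant of them was Tcrg-V5, at 5.73 ± 1.64 and 1.07 ± 1.04 CPM (edgeR adjusted p = 0.065). None of the 4 gamma V segments tested was called with edgeR, where 25.2% of all genes were. By edgeR 1 higher and 1 lower had an unadjusted p below 0.05, and DESeq2 and limma-trend each called 1 lower. Trgj3 had 12, 7, 3 and 5 counts with PBS and 0 in all IL-33 libraries, and Trgj2 had 14, 6, 12 and 2 counts with PBS and a single count with IL-33, in replicate 3, levels too low for the test.

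In the beta locus, Trbc1 lay somewhat lower with IL-33 and the groups overlapped for Trbc2. Trbc1 (chromosome 6, 41538218 to 41539881), the first of the beta constant genes, was at 337.5, 373, 323.5 and 273.5 CPM with PBS and at 218, 187, 218, 255 and 242 CPM with IL-33. The groups did not overlap, although PBS replicate 4 came close to IL-33 replicate 4, and the log2 change was -0.55 ± 0.12 (SE), 1.46-fold lower. Here too the gap rests on the TMM factor of PBS replicate 4. Unscaled, that library held 2866 counts of Trbc1 in a total of 19725838, against 3146 in 15485122 for IL-33 replicate 2. Trbc2 (chromosome 6, 41546730 to 41548352) was at 348, 393, 414.5 and 407.5 CPM with PBS and at 419.7, 312, 424, 383 and 410.5 CPM with IL-33. Its groups overlapped widely, at 391 ± 29.7 CPM (SD, n = 4) and 389.8 ± 46.4 CPM (SD, n = 5), with a log2 change of -0.0040 that turned to 0.13 with library size alone. Trbc1 made up 45.5% ± 4.29 of the counts of these genes with PBS and 36.5% ± 2.51 with IL-33, with the lowest PBS library at 40.2% and the highest IL-33 library at 40.0%. Summed, Trbc1 and Trbc2 were at 717.9 ± 41.4 CPM with PBS and 613.9 ± 64.8 CPM with IL-33, 1.17-fold lower. The ranges, 681.0 to 766.5 and 498.6 to 652.9 CPM, did not overlap. This gap also rests on the TMM factor of PBS replicate 4, which held 4271 unscaled counts of Trbc2, against 5252 in IL-33 replicate 2.

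The beta J segments are not among the 10 genes, and they were tested. They lie beside Trbc1 and Trbc2, which were picked on this comparison, so their results are not independent of that choice. The same holds for Trgj4 beside Tcrg-C4. Each beta J segment is also shorter than the 150-base reads, so neighbouring segments need not be separate results. All 7 Trbj1 segments, the row ahead of Trbc1, were tested, and 5 fell with IL-33 (edgeR adjusted p below 0.05), where 11.6% of all genes fell. All 7 had an unadjusted edgeR p below 0.05, and DESeq2 called 7 and limma-trend 6. Trbj1-2 averaged 10.2 ± 2.3 CPM in the PBS libraries and 2.6 ± 0.606 CPM after IL-33, and its fall (log2 -1.96 ± 0.32, SE) had an edgeR adjusted p of 0.0023. Trbj1-7 fell from 4.66 ± 1.29 to 1.17 ± 0.083 CPM (edgeR adjusted p = 0.0068). Trbj1-1, the most abundant, was at 17.1, 18.4, 14.4 and 6.20 CPM with PBS and at 3.31, 4.39, 4.19, 5.38 and 6.70 CPM with IL-33, so that PBS replicate 4 lay within the IL-33 range, and its fall (log2 -1.55 ± 0.36, SE) had an edgeR adjusted p of 0.012. The other falls were those of Trbj1-6 (log2 -1.62, edgeR adjusted p = 0.020) and Trbj1-5 (log2 -1.38, edgeR adjusted p = 0.040). The calls of Trbj1-1 and Trbj1-6 were lost with library size alone (edgeR adjusted p = 0.063 and 0.092), and that of Trbj1-6 also without PBS replicate 2 (0.052). Without the 3 IL-33 libraries high in globin reads, Trbj1-1, Trbj1-6 and Trbj1-7 were not called (edgeR adjusted p 0.13 to 0.20).

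Of the 6 Trbj2 segments tested, the row ahead of Trbc2, 0 were called with edgeR, where 25.2% of all genes were. In either direction 0 had an unadjusted edgeR p below 0.05, and 0 were called with DESeq2 or limma-trend. Trbj2-1, the most abundant, was at 12.6 ± 2.61 CPM with PBS (SD, n = 4) and 16.8 ± 2.55 CPM with IL-33 (SD, n = 5; edgeR adjusted p = 0.19). Summed, the Trbj1 segments were at 44.9 ± 11.8 and 14.5 ± 2.89 CPM and the Trbj2 segments at 21.7 ± 2.76 and 23.1 ± 2.51 CPM. Trbj1 segments made up 66.6% ± 7.08 of all beta J counts with PBS and 38.4% ± 5.58 with IL-33, lower in 5 of 5 IL-33 libraries than in any PBS library, a difference of -28.2 percentage points (exact permutation test, two-sided, p = 0.0159, the smallest that 4 against 5 libraries can give). This share was chosen after its values were seen, with the groups already apart, so the p-value adds no support. Beta V segments gave 0.164 ± 0.197 and 0.0879 ± 0.0507 counts per 100 counts of Trbc1 and Trbc2 together, and beta J segments 9.24 ± 1.34 and 6.15 ± 0.621.

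**Figure D2:**
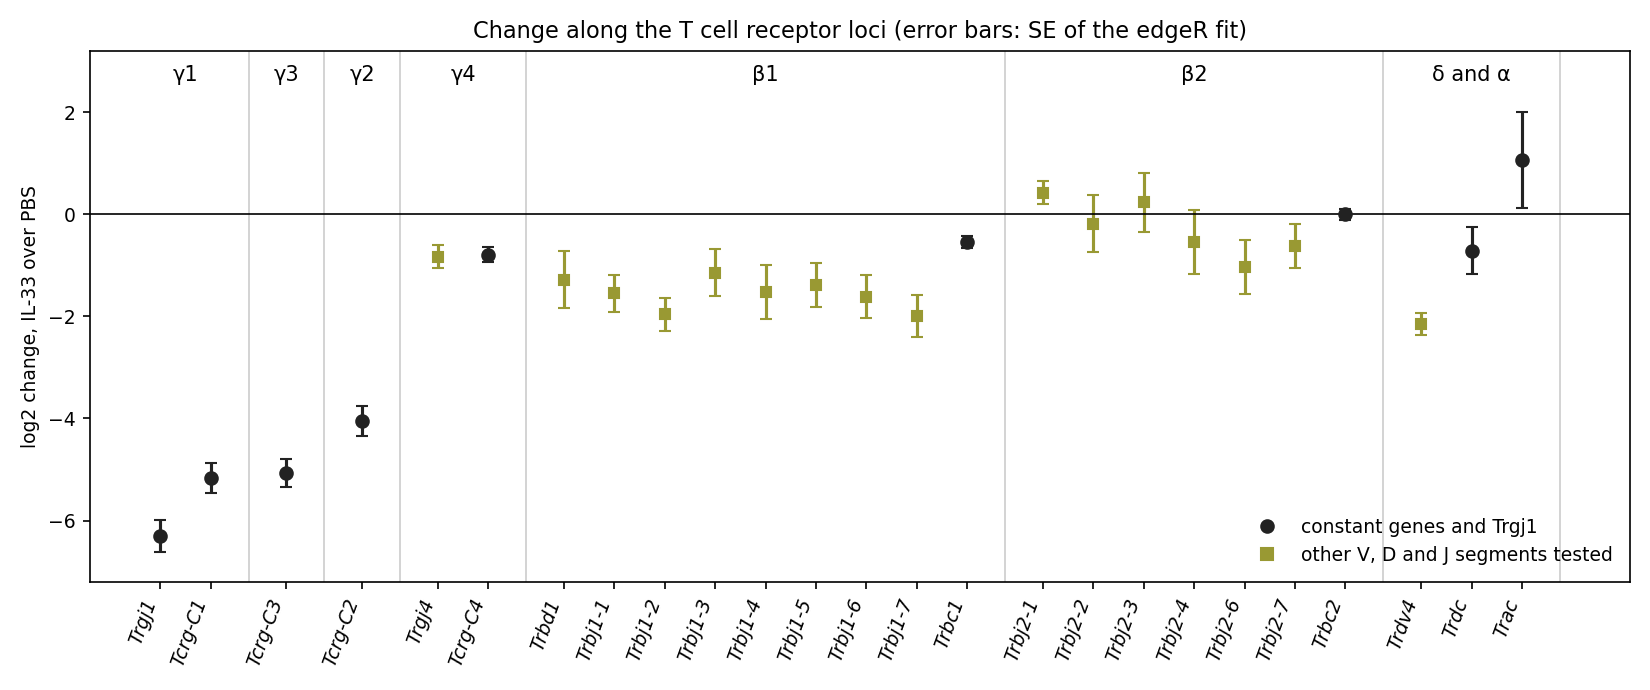
Log2 change, IL-33 over PBS, for the constant genes and Trgj1 (circles) and the other V, D and J segments discussed that passed the filter on low counts (squares), grouped by J and constant cluster; error bars are the SE of the edgeR fit over 4 PBS and 5 IL-33 libraries. Trgj1, Tcrg-C1, Tcrg-C3 and Tcrg-C2 lie between -6.30 and -4.05, the Trbj1 segments between -1.99 and -1.15, and Trbc2 at -0.0040.

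Genes of the delta and alpha loci were close to the detection limit, apart from Trdv4. Trdc, the delta constant gene (chromosome 14, 54142851 to 54148868), was at 2.69, 4.46, 4.36 and 4.10 CPM with PBS and at 1.16, 1.6, 2.46, 2.95 and 3.64 CPM with IL-33. The groups overlapped, and the log2 change of -0.72 ± 0.46 (SE) was -0.23 without the 3 IL-33 libraries high in globin reads. Exons of Trdc overlap those of the antisense genes Gm43434 and Trdv5, from which its reads cannot be told apart if strand was not kept. Trac, the alpha constant gene (chromosome 14, 54220521 to 54224206), was at 2.13, 0.542, 1.98 and 0 CPM with PBS and at 3.15, 2.08, 1.26, 2.91 and 2.97 CPM with IL-33. Its groups overlapped too, and the fitted log2 change of 1.07 ± 0.94 (SE) ran from 0.66 to 1.53 as single libraries were left out. The count of 0 in PBS replicate 4 allows up to 0.286 CPM, the level of 3 counts.

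Trdv4, a delta V segment ahead of Trdc (chromosome 14, 54074905 to 54075515), was the most abundant of the 51 other segments. It was at 127, 121, 94.0 and 84.6 CPM with PBS and at 22.4, 16.1, 32.2, 20.4 and 29.1 CPM with IL-33. The groups did not overlap, and its fall (log2 -2.15 ± 0.22, SE; edgeR adjusted p = 2.4e-04) was called in all 17 alternatives run. Alpha V segments, of which 7 had rows, summed to 0.862 ± 0.337 CPM with PBS and 0.540 ± 0.399 CPM with IL-33, and none reached the filter.

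Cd3g, which encodes the CD3 gamma chain that joins any TCR (chromosome 9, 44969572 to 44980431), was at 249, 221, 298.5 and 253 CPM with PBS and at 315, 231, 341.5, 277 and 239 CPM with IL-33. The groups overlapped over most of their range, at 255 ± 32.2 CPM (SD, n = 4) and 281 ± 47.6 CPM (SD, n = 5), with a log2 change of 0.14 ± 0.14 (SE). Of its partner chains, Cd247, or CD3 zeta, was at 23.7 ± 5.92 and 32.3 ± 4.78 CPM (edgeR adjusted p = 0.15). Cd3e was at 2.59 ± 2.87 and 5.33 ± 3.18 CPM (edgeR adjusted p = 0.52). Cd3d was at 1.68, 0, 0.0507 and 0 CPM in the PBS libraries and 1.77 to 4.04 CPM with IL-33, without overlap, and was not called (edgeR adjusted p = 0.17). Without PBS replicate 1, however, Cd3d was called higher (edgeR adjusted p = 0.0041). Cd3g was thus abundant in libraries with few reads of Cd3d and Cd3e. None of these 3 partner chains was called with edgeR or had an unadjusted p below 0.05, DESeq2 called 0 and limma-trend called 1 higher.

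**Figure D3:**
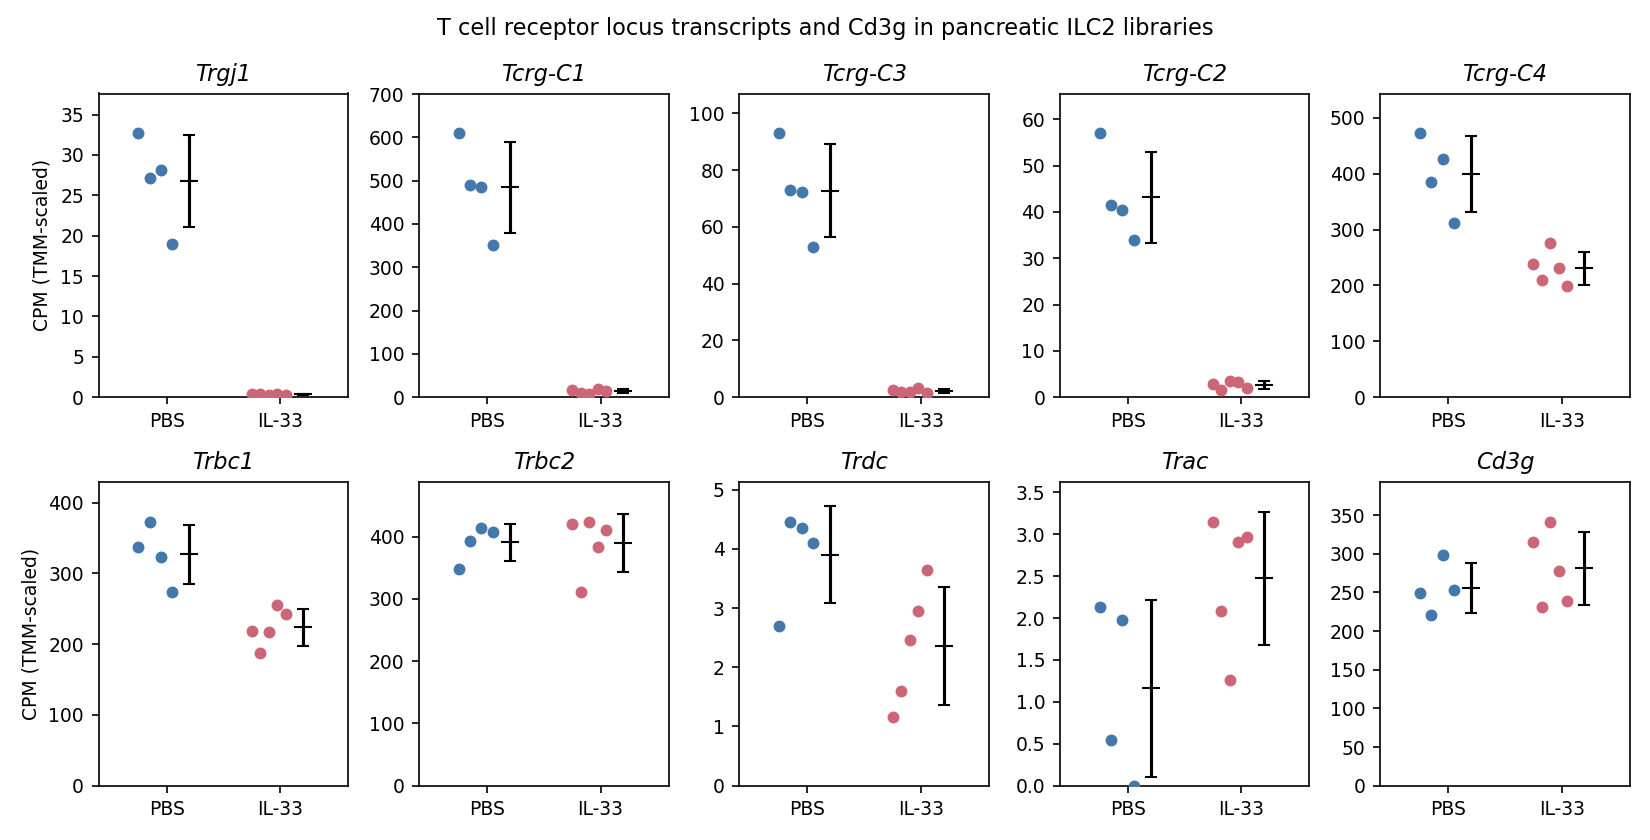
TMM-scaled CPM of the 10 genes, 1 panel a gene with its own axis from 0; points are libraries (4 PBS, 5 IL-33) and bars the mean ± SD. The groups are apart for Trgj1 and all 4 gamma constant genes, by little for Trbc1, and overlap for Trbc2, Trdc, Trac and Cd3g.

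In all, 6 of the 10 genes were lower past the edgeR threshold and 0 higher, where 11.6% of all genes tested were called lower and 13.7% higher. CPM of the groups did not overlap for the same number, 6, all lower, against 10.8% of all genes lower and 26.1% in either direction. For Tcrg-C4 and Trbc1 this rests on the TMM factor of PBS replicate 4. As the genes were picked on this comparison, nothing is read from these counts. In bulk samples fewer cells carrying a transcript and less of it per cell cannot be told apart.

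Levels of different genes were compared per kb of exon. With PBS the order of means was Trbc2 (565 ± 42.9 CPM per kb), Tcrg-C1 (524 ± 114.5), Trgj1 (446 ± 94.8), Trbc1 (436.5 ± 55.1) and Tcrg-C4 (405 ± 69.2), each overlapping its neighbours, and then Tcrg-C3 (112 ± 25.2), Cd3g (78.1 ± 9.85), Tcrg-C2 (47.2 ± 10.7), Trac (1.24 ± 1.13) and Trdc (1.01 ± 0.213). Tcrg-C3 and Cd3g overlapped, as did Trac and Trdc. With IL-33 the order was Trbc2 (563 ± 67.1), Trbc1 (299 ± 35.1), Tcrg-C4 (234 ± 29.9), Cd3g (85.9 ± 14.6), Tcrg-C1 (14.5 ± 4.91), Trgj1 (5.59 ± 1.43), Tcrg-C3 (3.33 ± 1.03), Tcrg-C2 (2.84 ± 0.950), Trac (2.64 ± 0.851) and Trdc (0.612 ± 0.259). Here Trbc1 overlapped Tcrg-C4, and Trgj1, Tcrg-C3 and Tcrg-C2 each overlapped the next in order. Trgj1 is shorter than the 150-base reads, so its level per length is uncertain.

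**Figure D4:**
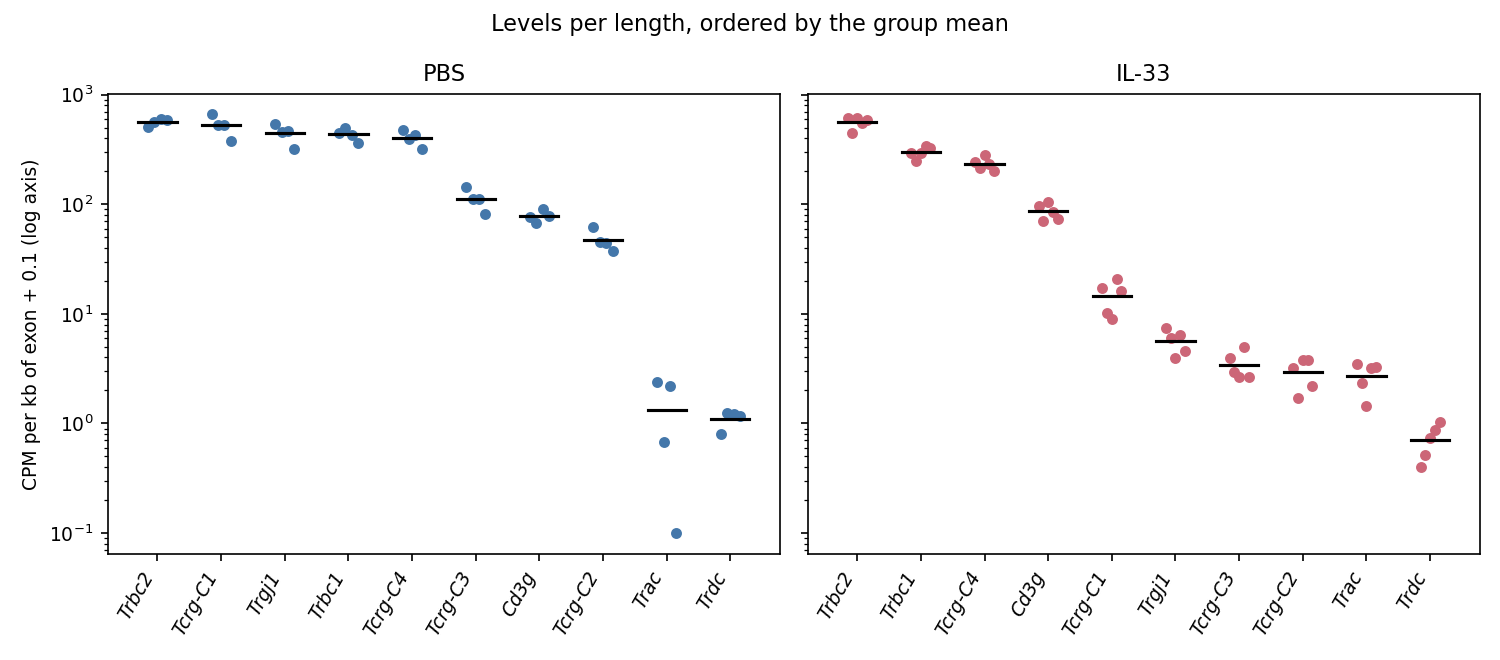
CPM per kb of exon plus 0.1, on a log axis, for the 10 genes in the PBS libraries (left) and the IL-33 libraries (right), ordered by the group mean (black line); points are libraries. Tcrg-C1 stands in the second place with PBS, at 524 CPM per kb, and in the fifth with IL-33, at 14.5.

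Markers of other cell types were read beside these values, including T and B cells, which the sort against CD3, B220 and lineage markers is meant to remove. Of the 13 alpha-beta T cell markers, 11 were analysed, and their summed level was 39.6 to 119.6 CPM with PBS and 92.1 to 113 CPM with IL-33. Cd5 and Trat1 were at 0 in all PBS libraries and at 0.753 ± 1.12 and 4.71 ± 1.68 CPM with IL-33, and Cd8b1 was at 0.191 CPM or less in every library. Cd28 was at 6.45 to 19.7 CPM with PBS and 9.86 to 19.3 CPM with IL-33. Themis, Cd6 and Foxp3 reached 9.34, 7.14 and 4.16 CPM in a PBS library and 2.6, 9.38 and 0.143 CPM in an IL-33 library, and each was at 0 in at least 1 PBS library. Cd4 and Cd8a were not analysed here. The most abundant, Ubash3a, was at 40.0 ± 20.7 and 48.7 ± 4.82 CPM (edgeR adjusted p = 0.53). Ctla4, an inhibitory receptor that ILC2s can also express, rose from 3.48 ± 3.04 to 25.9 ± 9.94 CPM (edgeR adjusted p = 0.012), a call lost without the 3 IL-33 libraries high in globin reads (0.063). The 6 analysed gamma-delta T cell markers summed to 88.6 to 132 CPM with PBS and 103 to 137 CPM with IL-33, most of it Maf (94.0 ± 23.6 and 116.5 ± 12.1 CPM), which ILC2s also express. The defining markers Sox13, Blk and Cd163l1 were at or near 0, at most 2.29, 1.62 and 5.76 CPM in any library, beside a PBS level of 484 CPM for Tcrg-C1. Zbtb16, or PLZF, fell from 14.7 ± 2.0 to 3.64 ± 1.73 CPM (edgeR adjusted p = 0.0069; 0.085 without the 3 libraries).

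NK cell and ILC1 markers summed to 0.102 to 8.78 CPM with PBS and 1.93 to 8.31 CPM with IL-33, over 4 analysed genes. Gzma, a granzyme, was at 0 in PBS and at 3.92 ± 2.50 CPM with IL-33 (SD, n = 5), at least 20.3-fold higher against 3 counts per PBS library (edgeR adjusted p = 0.0020; 0.061 without the 3 IL-33 libraries high in globin reads). Prf1 (1.29 ± 2.21 and 0.011 ± 0.0247 CPM) and Itga1 (2.78 ± 3.83 and 0.176 ± 0.167 CPM) had the higher mean with PBS and did not pass the edgeR filter, and DESeq2 called 2 genes of this list lower. B cell markers summed to 423.5 to 577 CPM with PBS and 177 to 440.2 CPM with IL-33. Most of that was Ighm, the mu heavy chain constant gene, which fell from 478 ± 64.1 to 156 ± 84.1 CPM (edgeR adjusted p = 0.0048), while Ms4a1, a surface marker of B cells, was at most 0.791 CPM in any library. Cd79b, a chain of the B cell receptor complex, rose from 16.4 ± 10.3 to 74.8 ± 15.9 CPM (edgeR adjusted p = 0.015; 0.16 without the 3 libraries). Myeloid markers summed to 14.1 to 36.2 and 15.9 to 79.5 CPM, and mast cell and basophil markers to 15.4 to 45.8 and 94.2 to 357 CPM. Only 2 of the 8 mast cell and basophil markers were analysed. Most of their sum was Cpa3, at 28.9 ± 14.9 and 156.9 ± 107.9 CPM, and the other, Fcer1a, was not called. Ighm was thus lower with IL-33, as the gamma genes were, while Cd79b and the sums of the mast cell and erythroid lists were higher. Their part in the results was not tested.

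Of 29 tested genes of proximal TCR signalling, 4 rose and 4 fell (8 called, where 25.2% of all genes were; median log2 change -0.17, beside -0.05 over all genes). Sh2d2a, an adaptor that binds LCK, rose from 446 ± 42.2 to 746 ± 47.0 CPM (edgeR adjusted p = 7.0e-04). Trat1, a membrane adaptor that associates with the TCR complex, was at 0 in all PBS libraries and at 6.63, 4.51, 3.07, 6.24 and 3.11 CPM with IL-33. It was at least 24.4-fold higher (edgeR adjusted p = 7.5e-04; 0.052 with the replicate number as a block). Lax1, an adaptor that restrains receptor signals, fell from 61.3 ± 14.5 to 14.3 ± 6.26 CPM (edgeR adjusted p = 0.0023; 0.054 without the 3 IL-33 libraries high in globin reads). The other calls included rises of Zap70 and Themis2 and falls of Lck and Malt1. Without those 3 libraries 2 genes of this list rose and 0 fell, and with library size alone 3 rose and 2 fell.

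In a list of 14 genes, Tespa1 and 13 brakes on TCR signalling, 1 rose and 4 fell, Tespa1 among the latter (13.7% of all genes rose and 11.6% fell; median log2 change -0.24, beside -0.05 over all genes). Sla, an adaptor that promotes receptor turnover, rose from 177 ± 20.1 to 584 ± 121 CPM (edgeR adjusted p = 2.1e-04). Tespa1, which is known to promote rather than restrain TCR signalling in thymocytes, fell from 341 ± 68.1 to 167 ± 28.6 CPM (edgeR adjusted p = 0.0022; 0.063 with library size alone). Pag1, the membrane anchor of the kinase CSK, fell from 45.6 ± 15.0 to 14.4 ± 5.6 CPM (edgeR adjusted p = 0.0070), and Ptpn22 and Cbl also fell. With library size alone 1 gene of this list fell.

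Of 13 tested genes of V(D)J recombination, 3 rose and 1 fell (4 called, where 25.2% of all genes were; median log2 change -0.23), and Rag1, Rag2 and Dntt were not analysed here. Hmgb2 and Hmgb1, DNA-bending proteins that assist RAG and serve many other functions, rose from 110.1 ± 13.5 to 572 ± 65.9 CPM (edgeR adjusted p = 9.6e-06) and from 207 ± 46.6 to 347 ± 20.7 CPM (edgeR adjusted p = 0.0064). Prkdc, the DNA-dependent protein kinase, fell from 37.9 ± 8.97 to 15.6 ± 3.86 CPM (edgeR adjusted p = 0.0050), and Poll, a repair polymerase, rose. Hmgb1 was not called with library size alone (edgeR adjusted p = 0.12), and neither Hmgb1 (0.074) nor Prkdc (0.075) without the 3 IL-33 libraries high in globin reads. With library size alone or without those 3 libraries, 1 gene of the list rose.

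Transcription factors and cytokine receptors known to act on TCR loci in T cell precursors included 30 genes tested, of which 3 rose and 6 fell (13.7% of all genes rose and 11.6% fell; median log2 change -0.12). Bcl11b, a zinc finger factor of T cells and ILC2s, fell from 235 ± 15.0 to 130.5 ± 18.6 CPM, with an edgeR adjusted p of 0.0014 that became 0.074 with library size alone. Hes1, a target of Notch, fell from 141 ± 25.4 to 67.1 ± 9.89 CPM (edgeR adjusted p = 0.0014). Myb was at 0 in PBS and at 2.36 ± 0.707 CPM with IL-33, at least 12.3-fold higher (edgeR adjusted p = 0.0013; 0.067 without the 3 IL-33 libraries high in globin reads). Il7r, the receptor chain through which IL-7 and STAT5 are known to open the gamma locus in precursors, was picked with its values in view. It fell from 652 ± 139.8 to 269 ± 67.4 CPM (edgeR adjusted p = 0.0031). The STAT5 genes Stat5a and Stat5b had the higher mean with IL-33 (log2 0.59 and 0.47) and were not called. A part of Il7r or STAT5 in the fall of the gamma genes was not tested. Il2rg, Zbtb16 and Ikzf1 also fell, while Jak3 and Tcf7 rose. Without those 3 libraries 1 gene of this list rose and 3 fell, and with library size alone 3 rose and 3 fell. Over all function lists, 11 of 89 genes rose and 15 fell (26 called, where 25.2% of all genes were). The counts were 5 and 6 without the 3 libraries, and 7 fell with library size alone.

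By the Pearson correlation of log2(CPM + 1) over the 9 libraries, the genes most like the gamma constant sum among 10246 others were Tmem176b (r = 0.993), AI593442 (0.992), Mapk12 (0.990), Mdfic (0.990) and Ripor2 (0.989). Tmem176b, a membrane protein related to the MS4A family, went from 1098.8 ± 165.5 CPM to 113 ± 25.2 CPM. With group means removed the correlations were 0.807 to 0.885. The genes were picked for the highest r over these same 9 libraries. High values with group means removed are therefore partly set by that choice, here and for the beta sum below, and nothing is read from them. Mdfic, an inhibitor of MyoD-family factors, had the highest within-group value and went from 297 ± 82.1 to 53.6 ± 16.4 CPM. For Trbc1 and Trbc2 together the genes were Utrn (r = 0.947), Fundc1 (0.942), Rhbdd1 (0.939), Rnf11 (0.939) and Zfand5 (0.936), with 0.873 to 0.908 after group means were removed. The libraries share their scaling factors and depth in all of these values.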

How the data were processed

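Messenger RNA of sorted ILC2s was sequenced as paired 150-base reads from 5 to 15 ng of RNA, per the labels' protocols. The authors deposited a table of raw counts, whole numbers by Ensembl gene, and one of normalized signal, which on checking was each library's counts over a single factor. STAR 2.7.7a, Salmon 1.6.0, Trimmomatic 0.39, FastQC 0.11.9, DESeq2, Picard and the build GRCm38.p6 are named in the submitters' processing notes. What each did, the annotation, the strand setting, whether the counts are rounded Salmon estimates and how reads matching several genes were treated: not given in the sources used here.

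Of 20732 genes, 20571 (99.2%) matched a symbol. Coordinates, exon lengths and sequences came from GENCODE M21 (GRCm38). The test was edgeR 4.0.16 (R 4.3.3; TMM, a filterByExpr minimum count of 10, two-sided robust quasi-likelihood F-test) with Benjamini-Hochberg adjustment over 14405 genes, at 0.05. DESeq2 1.42.0 and limma 3.58.1 (limma-trend, log2 of signal plus 1) were alternatives, beside other scalings and filters, the replicate number as a block, a threshold of 0.01, group medians for the gamma sum and leaving out each library. Leaving out IL-33 replicates 1, 2 and 3 was added after seeing the data. The SE of a log2 change is its size over the root of the F statistic. The share of Trbj1 among beta J counts was compared by an exact permutation test (SciPy 1.17.1). Intervals and floors cover counting error only, and genes at 0 in a group were set at 3 counts per library (0.133 to 0.286 CPM). The 16 pairs of replicates differed by more than sampling noise (chi-square over its degrees of freedom at least 52.6). On data simulated from the fit of IL-33 against PBS, edgeR recovered 13.3% of the 98 2-fold changes and 54.3% of the 92 4-fold changes among 13870 genes, with 1 false call.

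The members, lists and tests were chosen with earlier results of these data known. Named beside the members were the 3 genes of smallest adjusted p in each function list, all CD3 chains and co-receptors, called and most abundant genes of the T, NK and B cell lists, Gata3, Il1rl1 and Klrg1, and the 5 most abundant and 5 most strongly called other segments. The 5 genes most like the gamma and the beta sums (mean of at least 5 CPM) were added. Further genes in the text were picked with their values in view. Some genes of the lists are not reported here.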

Additional observations from a re-analysis of the deposited data

Results flagged for a closer look

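In groups of 4 or 5 libraries, 11 values lay far from the rest of their group by the gap to the nearest library over the group's range. Chance flags about 1 in 20 groups, and 153 were looked at. The sum of Trbc1 and Trbc2 in IL-33 replicate 2 was 498.6 CPM, with the others at 638 to 653. Tcrg-C2 counts per 100 Tcrg-C1 counts reached 41.0 in IL-33 replicate 3 against 12.9 to 17.9. Alpha J segments summed to 0.507 CPM in PBS replicate 3 against 0 in the other PBS libraries, and to 0.331 CPM in IL-33 replicate 1 against at most 0.0476. Cd3d was at 1.68 CPM in PBS replicate 1 against at most 0.0507. Ighm was at 305.7 CPM in IL-33 replicate 3 against 104.7 to 131, and Gata3 at 6802.6 CPM in the same library against 2987.7 to 3862.6. Bcl11b was at 97.9 CPM in IL-33 replicate 4 against 132 to 143. Maf was at 95.4 CPM in IL-33 replicate 2 against 117 to 125, and Fundc1 at 26.8 against 39.6 to 43.6. Ripor2 was at 50.4 CPM in PBS replicate 4 against 65.5 to 68.3.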

How the results depend on the processing

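The log2 changes of Trgj1, the 4 gamma constant genes and Trbc1 kept their sign under all 17 alternatives and moved by less than the spread between libraries. The gamma constant sum lay between -2.13 and -1.89 as each library was left out and between -2.06 and -1.94 otherwise. The log2 change of Trbc2, near 0, did not keep its sign and ran from -0.06 to 0.13. Trac and Trdc kept their sign but moved further. Trac was at 1.92 with limma-trend on the deposited signal, and Trdc at -0.23 without the 3 IL-33 libraries high in globin reads. That setting, with IL-33 replicates 4 and 5 alone, left 732 genes higher and 664 lower, 5 pathway genes higher and 6 lower, and 2 segments lower. The calls named above as lost in it kept their direction. Their log2 changes were larger in size than with all libraries for Trgj4, Lax1, Zbtb16, Ctla4 and Hmgb1. They were smaller for Trbj1-1, Trbj1-6, Trbj1-7, Prkdc, Cd79b, Gzma and Myb. With library size alone 644 genes, 7 pathway genes and 3 segments were lower. Requiring 5 CPM or more in 4 or more libraries left 3 segments lower, DESeq2 called 2577 genes and 13 segments lower, and a threshold of 0.01 left 1019 genes higher and 767 lower. As each library was left out, 4 to 8 segments were lower, the fewest without PBS replicate 2. The shared replicate numbers did not pair the libraries (correlations of their deviations -0.12 to 0.07; 0 of 4 PBS libraries correlated best with their own number). With the replicate number as a block 791 genes were higher and 666 lower, 5 pathway genes higher and 8 lower, and 2 segments lower. Calls lost with that block included those of Trgj4, Trbj1-1, Trbj1-6, Trbj1-7, Trat1, Ctla4, Gzma, Myb, Hmgb1 and Prkdc. Their edgeR adjusted p lay between 0.052 and 0.14, and their direction was kept. The cause of these differences was not tested. Depth limits Trdc, Trac, Trgj2, Trgj3 and the V segments, most of which hold too few counts to test.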
